A study of Mus musculus with 18 samples.

Results

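The immunoglobulin heavy variable (Ighv) genes were taken as all genes of the deposited count table whose symbol begins with Ighv, which gave 183 of 54232 genes. All 183 lay on chromosome 12 of GRCm38, between 113572927 and 116010093, with 181 on the minus strand and the 2 IG_LV_genes, Ighv5-8 and Ighv1-13, on the plus strand. GENCODE M21 annotates 113 of them as IG_V_gene, 68 as IG_V_pseudogene and 2 as IG_LV_gene. They belong to 16 families, named by the number after Ighv, and family 1 alone holds 92 genes. RNA of lacrimal glands (LGs) was sequenced from males of 2 strains. BALB/cJ (BALB/c) served as the control. NOD.B10Sn-H2b/J (NOD.H-2b), a model of Sjögren's syndrome, carries the NOD background with the H2b haplotype of C57BL/10SnJ in place of the NOD one and does not develop autoimmune diabetes. Mice were 2, 4 or 6 months old (2M, 4M, 6M), with 3 mice for every strain at every age, which made 18 libraries of 1 gland from 1 mouse each.

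The heavy chain of an antibody is assembled in developing B cells, which join 1 V, 1 D and 1 J segment of DNA. A rearranged V segment is transcribed from its own promoter together with the constant exons that set the antibody class. A B cell and the plasma cells that descend from it therefore transcribe essentially 1 productive V gene each, and the mix of V genes in a tissue reflects the mix of clones in it. Plasma cells hold far more heavy chain mRNA than resting B cells. In the LG, plasma cells that secrete IgA supply the antibodies of tears.

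Each V gene has a short leader exon and a V exon that encodes the framework and the hypervariable loops facing the antigen. The 4 sequences printed first are stretches of 300 bases of the spliced leader and V exons, counted from the ATG, of 2 leading genes of the data, Ighv3-6 and Ighv10-1, and of 2 genes whose counts were almost restricted to 1 strain, Ighv5-16 and Ighv1-14. The last 300 bases are given for the first 3, where capitals mark TGTGNNAGA, the end of the V exon from the conserved cysteine codon onward. Of Ighv1-14 the first 300 bases are given, where capitals mark the first in-frame stop codon, at base 13 of the reading frame. The motif was searched on the coding strand in the last 15 bases and was found in 99 of the 183 genes, 73 of 113 IG_V_genes and 26 of 68 pseudogenes. All sequences are GENCODE M21 transcripts of GRCm38, from C57BL/6J.
Ighv3-6: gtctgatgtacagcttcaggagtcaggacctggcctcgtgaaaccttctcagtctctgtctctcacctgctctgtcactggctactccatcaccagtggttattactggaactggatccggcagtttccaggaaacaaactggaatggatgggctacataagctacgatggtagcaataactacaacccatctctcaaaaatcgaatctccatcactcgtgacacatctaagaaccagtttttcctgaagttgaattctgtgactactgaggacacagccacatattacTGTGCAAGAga
Ighv10-1: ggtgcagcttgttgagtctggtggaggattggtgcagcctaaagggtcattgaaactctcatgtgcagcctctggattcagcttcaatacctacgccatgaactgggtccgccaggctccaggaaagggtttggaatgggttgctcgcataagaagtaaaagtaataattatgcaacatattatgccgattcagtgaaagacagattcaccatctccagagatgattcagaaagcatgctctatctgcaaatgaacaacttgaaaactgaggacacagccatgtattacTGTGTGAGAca
Ighv5-16: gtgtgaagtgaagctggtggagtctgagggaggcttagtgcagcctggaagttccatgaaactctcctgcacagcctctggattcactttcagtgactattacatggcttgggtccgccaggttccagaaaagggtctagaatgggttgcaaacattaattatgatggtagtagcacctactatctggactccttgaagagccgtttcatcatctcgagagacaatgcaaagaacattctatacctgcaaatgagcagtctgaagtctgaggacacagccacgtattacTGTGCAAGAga
Ighv1-14: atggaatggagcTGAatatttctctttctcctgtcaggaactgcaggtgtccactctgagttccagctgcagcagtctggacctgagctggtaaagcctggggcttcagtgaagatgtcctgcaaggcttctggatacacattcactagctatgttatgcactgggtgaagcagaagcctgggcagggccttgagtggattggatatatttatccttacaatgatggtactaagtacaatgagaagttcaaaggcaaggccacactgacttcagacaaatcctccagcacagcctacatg
Ighv3-6 (ENSMUSG00000076672) lies at chr12:114288152-114288582 and Ighv10-1 (ENSMUSG00000095981) at chr12:114479005-114479451. Ighv5-16 (ENSMUSG00000094194) lies at chr12:113838526-113839010 and the pseudogene Ighv1-14 (ENSMUSG00000104422) at chr12:114646572-114647056. From the first ATG, 63 of the 68 pseudogenes had an in-frame stop, and 110 of the 113 IG_V_genes started with ATG and had none.

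The V exons of Ighv4-1 (ENSMUSG00000076655, chr12:113948282-113948796) and of the pseudogene Ighv4-2 (ENSMUSG00000103271, chr12:114013144-114013606) form family 4. They are shown as a pair because their counts went opposite ways between the strains. The 2 V exons are 307 bases long and differ at 13 bases, an identity of 95.8%. A stretch of 300 bases is given with the differing bases, all of which lie in it, in capitals.
Ighv4-1: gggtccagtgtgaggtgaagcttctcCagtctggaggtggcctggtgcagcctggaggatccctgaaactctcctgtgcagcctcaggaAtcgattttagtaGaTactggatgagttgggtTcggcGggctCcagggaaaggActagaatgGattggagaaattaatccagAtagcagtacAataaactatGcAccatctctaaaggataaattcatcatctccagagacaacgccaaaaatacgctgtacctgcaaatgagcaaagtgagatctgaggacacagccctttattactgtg
Ighv4-2: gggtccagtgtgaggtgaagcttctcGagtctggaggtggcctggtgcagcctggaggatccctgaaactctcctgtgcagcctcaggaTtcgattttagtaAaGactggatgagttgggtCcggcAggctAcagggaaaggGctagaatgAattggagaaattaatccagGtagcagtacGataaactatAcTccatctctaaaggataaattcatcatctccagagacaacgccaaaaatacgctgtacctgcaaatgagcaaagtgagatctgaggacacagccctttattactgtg
Such likeness is common in the locus. Among the 155 Ighv genes with a count, the median identity of the V exon to that of the nearest other Ighv gene was 94.4%, and for 14 genes it was at least 98%. Ighv1-62-2 and Ighv1-71 have identical V exons, so the division of counts between them is uncertain. How reads that fit several places were handled is not given in the sources used here. Reads of both strains were assigned to the 1 reference genome of C57BL/6J. A strain difference in a single Ighv gene thus cannot be told apart from a difference between the strains' alleles in how reads were assigned. The same limit holds for strain differences in sums, shares and numbers of these genes. Comparisons of ages within a strain share the alleles.

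Library totals ran from 49480781 to 103936830 counts, and BALB/c 6M replicate 1 was the largest. Replicates differed by more than sampling noise, with a chi-square per gene of 16.4 to 83.4 between mice of a group. Levels are given as CPM, counts scaled to a common library size, after TMM scaling over the 18 libraries, and a gene was called when edgeR's quasi-likelihood test gave an FDR under 0.05 over all genes tested and a change of at least 2-fold. Of the gland's own markers, all 8 epithelial genes were measured at every age, with a summed level of 654 to 1118 CPM over the 18 mice.

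Total Ighv transcripts were higher in every NOD.H-2b mouse than in any BALB/c mouse of the same age. At 2M, the summed level was 3.63, 7.41 and 9.47 CPM in the 3 BALB/c mice and 81.7, 218 and 173 CPM in the 3 NOD.H-2b mice. At 4M it was 126, 98.5 and 204 CPM in BALB/c and 806, 892 and 681 CPM in NOD.H-2b mice. At 6M it was 97.5, 168 and 117 CPM in BALB/c and 789, 825 and 679 CPM in NOD.H-2b. The means of NOD.H-2b were 23.0-fold those of BALB/c at 2M, 5.55-fold at 4M and 5.98-fold at 6M, and the closest pair of mice of opposite strains differed 8.62-fold, 3.34-fold and 4.03-fold. BALB/c mice went from 6.84 ± 2.96 CPM at 2M to 143 ± 54.7 CPM at 4M (SD, n = 3), a 20.9-fold rise in the mean with no overlap between ages. NOD.H-2b mice went from 157 ± 69.3 CPM to 793 ± 106 CPM over the same interval (SD, n = 3), 5.04-fold. From 4M to 6M the groups of each strain overlapped, and the means of 6M were 0.895 and 0.964 times those of 4M in BALB/c and NOD.H-2b. BALB/c mice at 4M and NOD.H-2b mice at 2M had overlapping sums. These sums describe the gland as a whole, in which fewer B-lineage cells and less RNA per cell cannot be told apart. No test was made of a sum over the genes.

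**Figure D1:**
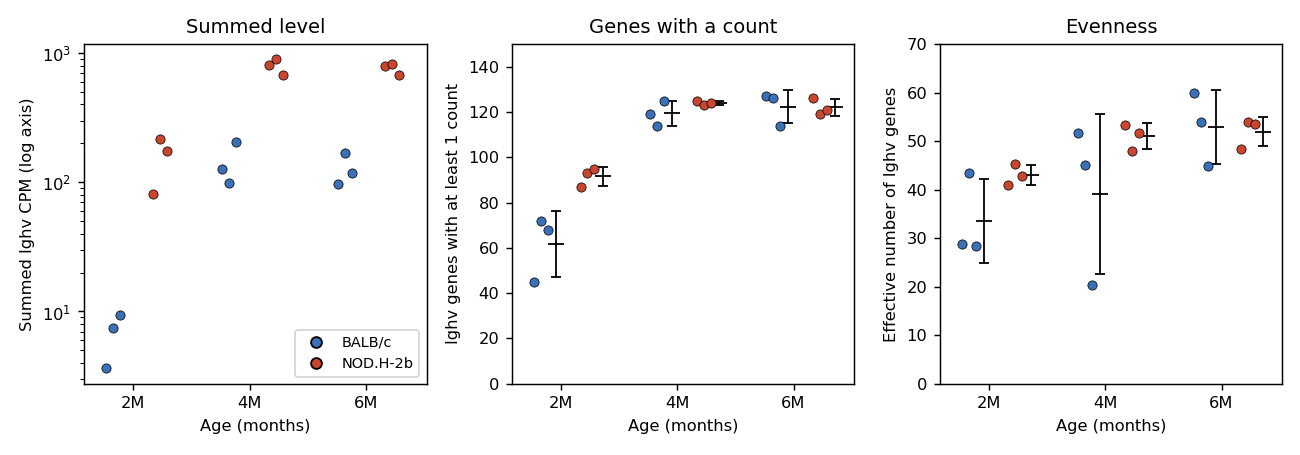
Summed Ighv level (CPM, log axis), number of Ighv genes with at least 1 count, and effective number of Ighv genes against age, 1 point per mouse (blue BALB/c, red NOD.H-2b); black marks in the 2 panels on the right show mean and SD of 3 mice. The sums separate the strains at every age, from 3.63 to 9.47 against 81.7 to 218 CPM at 2M, while the number of genes separates them only at 2M and BALB/c 4M replicate 3 lies lowest in effective number, at 20.4.

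Of the 183 genes, 28 had no count in any mouse, among them 24 pseudogenes, and 155 had a count in at least 1 mouse. At 2M, 45, 72 and 68 genes had a count in the BALB/c mice and 87, 93 and 95 in the NOD.H-2b mice, without overlap. At 4M the numbers were 119, 114 and 125 in BALB/c and 125, 123 and 124 in NOD.H-2b. At 6M they were 127, 126 and 114 in BALB/c and 126, 119 and 121 in NOD.H-2b. The strains overlapped at both later ages. The mice of 2M differed in depth on these genes, with 190 to 537 Ighv counts in BALB/c and 4970 to 14290 in NOD.H-2b. When the Ighv counts of every mouse were thinned to 190, the lowest total, 45.0 to 54.4 genes were left in BALB/c and 50.0 to 53.9 in NOD.H-2b mice at 2M, and the 2M groups overlapped. This thinning was chosen after seeing the data. The thinned number ran from 45.0 to 62.0 over all 18 mice. Depth also differed later, with 4849 to 13675 Ighv counts in BALB/c and 34004 to 57754 in NOD.H-2b mice at 4M. At 6M there were 5021 to 9087 and 38736 to 60377. Restricted to the 113 IG_V_genes and without thinning, the 4M mice had 94, 91 and 97 in BALB/c and 106, 102 and 104 in NOD.H-2b, without overlap. The 6M mice had 98, 97 and 93 in BALB/c and 106, 103 and 102 in NOD.H-2b, again without overlap. The numbers of IG_V_genes alone were not thinned to an equal Ighv total, so they cannot be told apart from depth. Pseudogenes went the other way, with 25, 23 and 28 counted in BALB/c against 19, 21 and 20 in NOD.H-2b mice at 4M, and 29, 29 and 21 against 20, 16 and 19 at 6M.

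Evenness within a mouse was measured as the effective number of genes, the exponential of the Shannon entropy of the gene shares, which equals the number of genes that would give the same entropy if all were equally abundant. At 2M it was 28.7, 43.4 and 28.4 in BALB/c and 41.1, 45.2 and 42.8 in NOD.H-2b. At 4M it was 51.6, 45.2 and 20.4 in BALB/c and 53.2, 48.0 and 51.7 in NOD.H-2b. At 6M it was 60.0, 53.9 and 44.9 in BALB/c and 48.4, 53.9 and 53.6 in NOD.H-2b. The strains overlapped at each age. Means differed by 9.52 genes at 2M, 11.9 at 4M and -0.97 at 6M (NOD.H-2b minus BALB/c), against a pooled SD of 6.25, 11.8 and 5.79. BALB/c 4M replicate 3 was the least even of the 18 mice, since 5503 of its 13675 Ighv counts, 40.2%, came from Ighv10-1. Without that mouse the 4M difference was 2.59 genes. With all mice and the Ighv counts of each thinned to 190, the differences were 4.13, 9.80 and 0.42 at the 3 ages. The pooled SD was then 5.05, 8.96 and 4.14.

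The gene with the largest share differed between most mice. In BALB/c at 2M it was Ighv5-12 (14.7%), the pseudogene Ighv12-2 (8.23%) and Ighv3-6 (21.4%), with few counts behind each. In NOD.H-2b at 2M it was Ighv4-1 in all 3 mice, with 9.42%, 7.91% and 13.7% of the Ighv counts. BALB/c mice at 4M were led by Ighv10-1 (11.0%), Ighv1-14 (14.5%) and Ighv10-1 (40.2%), and NOD.H-2b mice at 4M by Ighv1-81 (9.06%), Ighv1-9 (7.94%) and Ighv3-6 (8.27%). At 6M the leading genes were Ighv1-14 (6.60%), Ighv5-6 (7.29%) and Ighv10-1 (12.9%) in BALB/c and Ighv6-3 (8.35%), Ighv4-1 (5.28%) and Ighv9-3 (5.74%) in NOD.H-2b. The gene shares of 2 mice were also compared by their overlap, the sum over genes of the smaller of the 2 shares. It averaged 39.2% between BALB/c mice of 2M, 54.1% at 4M and 62.7% at 6M, and 62.5%, 65.7% and 74.8% between NOD.H-2b mice. Mice of opposite strains and equal age overlapped by 41.7% on average (29.6% to 54.2% over 27 pairs), below the 59.8% within groups (34.2% to 76.9% over 18 pairs). These pairs share mice and the BALB/c 2M shares rest on few counts, so the overlaps are a description.

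Over all mice, Ighv3-6, Ighv1-9, Ighv9-3, Ighv10-1, Ighv1-26 and Ighv6-3 had the highest level per length, with means of 47.4, 35.4, 34.6, 31.3, 30.8 and 30.4 CPM per kilobase of exon. The mean of Ighv10-1 rested on BALB/c 4M replicate 3 and was 19.7 without it, an alternative chosen after seeing the data. Ighv3-6 stood at 2.51, 2.60 and 5.97 CPM in BALB/c and 33.4, 63.5 and 56.3 CPM in NOD.H-2b mice at 4M, and at 3.17, 2.13 and 1.57 CPM against 41.9, 40.1 and 28.6 CPM at 6M. All NOD.H-2b mice lay above all BALB/c mice at both ages, and the log2 fold change was 3.77 (SE 0.49, edgeR FDR 0.0032) at 4M and 3.99 (SE 0.28, edgeR FDR 3.0e-05) at 6M. At 2M, 115 of its 116 BALB/c counts came from replicate 3, and the log2 fold change of 2.87 was not called (SE 1.5, edgeR FDR 0.22). Ighv10-1 was called higher in NOD.H-2b at 2M only. It stood at 0, 0.215 and 0.0353 CPM in BALB/c and 1.51, 4.16 and 1.07 CPM in NOD.H-2b at that age, a log2 fold change of 4.74 (SE 1.02, edgeR FDR 0.014). It stood at 13.9, 2.30 and 82.1 CPM in BALB/c and 13.7, 3.60 and 28.7 CPM in NOD.H-2b mice at 4M, and at 3.52, 7.75 and 15.2 CPM against 5.83, 8.09 and 10.9 CPM at 6M. Its ranges overlapped at both later ages, with log2 fold changes of -1.11 (SE 1.5, edgeR FDR 0.61) and -0.04 (SE 0.58, edgeR FDR 0.96).

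**Figure D2:**
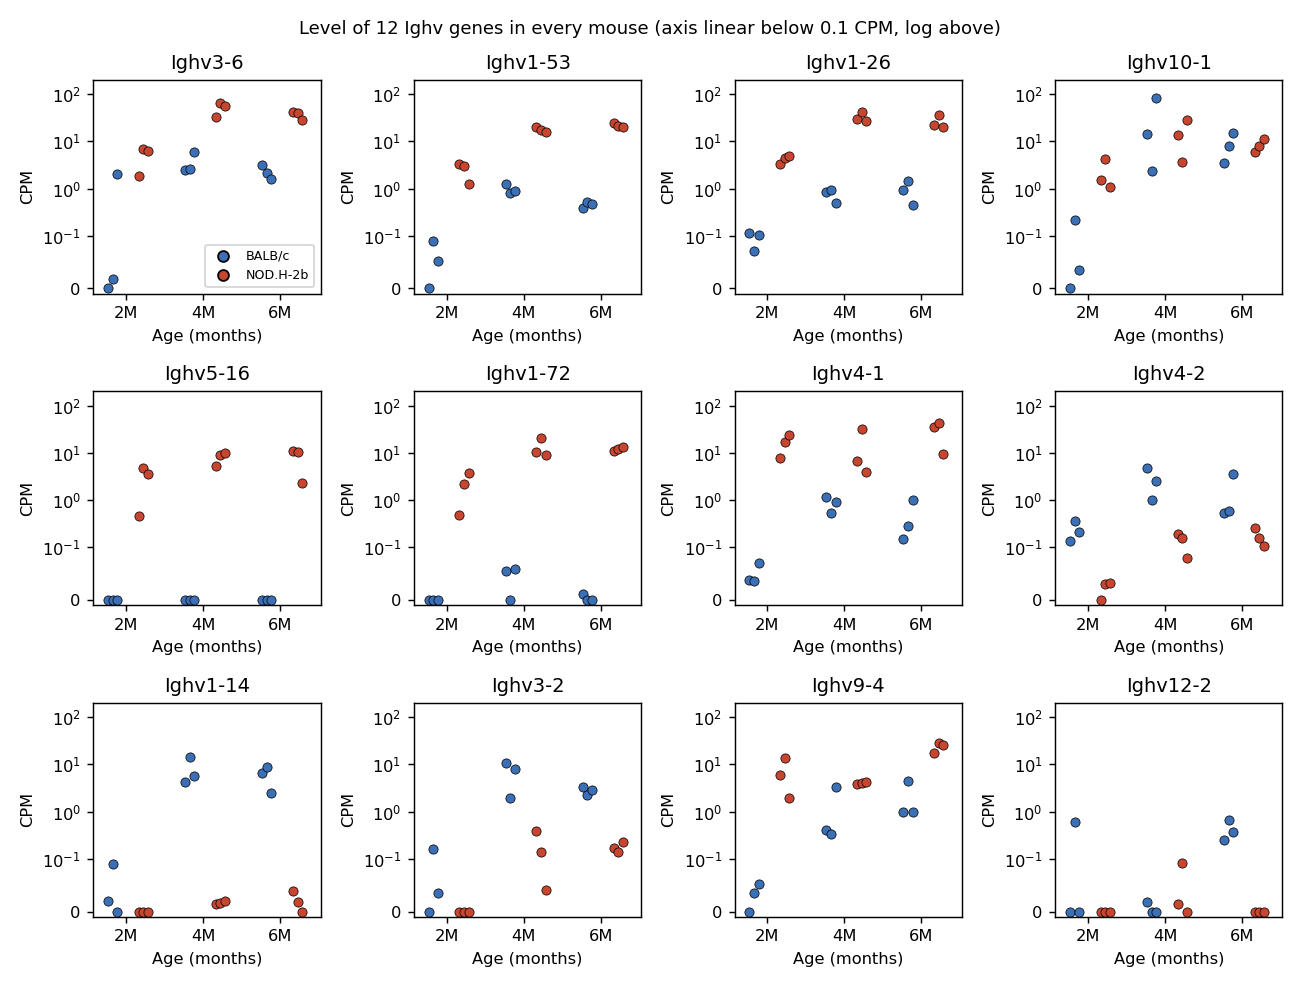
Level of 12 Ighv genes in every mouse against age (CPM, axis linear below 0.1 and log above; blue BALB/c, red NOD.H-2b). Ighv1-53 and Ighv1-26 separate the strains at each age, Ighv10-1 overlaps at 4M and 6M, Ighv5-16 lies at 0 in all 9 BALB/c mice, and Ighv1-14, Ighv3-2 and Ighv4-2 are higher in BALB/c at 4M and 6M.

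At 2M, 56 Ighv genes had enough counts to be tested between the strains, of which 46 were called higher and none lower in NOD.H-2b mice, where 12.0% of all 17200 genes tested were called higher and 3.76% lower. The other genes tested were not called. With BALB/c 2M replicate 1 or any 1 of the NOD.H-2b mice of 2M left out, 1 gene was called lower. With all mice, each of the 56 fitted log2 fold changes was positive, and 53 had an unadjusted p under 0.05 in edgeR. The share of all genes under that p was not computed, here or in the comparisons below, so such counts are a description. No gene tested at 2M had 10 or more counts in every BALB/c mouse, while all 56 had them in every NOD.H-2b mouse. The 56 genes therefore passed the filter through the group where they were high, and their number is a description only. With a minimum of 10 counts in every mouse no Ighv gene could be tested. The genes with the smallest p were Ighv1-26, Ighv5-9 and Ighv1-22. Ighv1-26 had 6, 4 and 6 counts in BALB/c and 202, 291 and 310 in NOD.H-2b, a log2 fold change of 5.45 (SE 0.28, edgeR FDR 7.9e-08). Ighv5-9 had 2 counts in each BALB/c mouse and 99, 235 and 157 in NOD.H-2b, a log2 fold change of 6.10 (SE 0.44, edgeR FDR 1.3e-06). Ighv1-22 had 1 count in all BALB/c mice together and 64, 106 and 65 in NOD.H-2b, a ratio of levels of 204 with a counting interval of 36.2 to 8075. Each NOD.H-2b mouse lay far above each BALB/c mouse in these genes. Ighv4-1 had 2, 2 and 4 counts in BALB/c and 468, 1131 and 1515 in NOD.H-2b, a log2 fold change of 8.37 (SE 0.88, edgeR FDR 0.0019).

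At 4M, 97 Ighv genes were tested, with 62 called higher and 7 called lower in NOD.H-2b mice, against 15.6% and 4.72% of all 17722 genes tested. Their median log2 fold change was 2.98, beside 0.00034 over all genes. Among the genes tested, 63 had at least 10 counts in every BALB/c mouse and 86 in every NOD.H-2b mouse. With at least 10 counts required in every mouse, a filter to which the above shares of all genes do not apply, 38 were higher and 0 lower. Ighv1-53, Ighv1-55 and Ighv1-39 had the smallest p among the higher genes. Ighv1-53 stood at 1.25, 0.813 and 0.895 CPM in BALB/c and 20.2, 17.2 and 15.8 CPM in NOD.H-2b, a log2 fold change of 4.17 (SE 0.18, edgeR FDR 3.4e-07). Ighv1-55 stood at 0.664, 0.305 and 0.403 CPM in BALB/c and 11.0, 11.8 and 11.7 CPM in NOD.H-2b, a log2 fold change of 4.65 (SE 0.23, edgeR FDR 9.2e-07). Ighv1-39 had a log2 fold change of 4.70 (SE 0.24, edgeR FDR 1.1e-06). In all 3 genes the mice of each strain lay close together and the strains far apart. CPM did not overlap between the strains for 61 of the 62 higher genes. These genes were called on the same mice, and the share over all called genes was not computed, so this is a description.

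At 6M, 97 Ighv genes were tested again, with 59 called higher and 9 called lower in NOD.H-2b mice, against 18.8% and 6.03% of all 17750 genes tested. The median log2 fold change was 2.81, beside -0.0041 over all genes. With at least 10 counts in every mouse, where these shares again do not apply, 36 were higher and 0 lower. Ighv1-53 stood at 0.397, 0.511 and 0.468 CPM in BALB/c and 24.9, 21.1 and 20.1 CPM in NOD.H-2b, a log2 fold change of 5.65 (SE 0.15, edgeR FDR 1.5e-08). Ighv1-72 had 1, 0 and 0 counts in BALB/c and 851, 697 and 768 in NOD.H-2b, a ratio of levels of 2221 with a counting interval of 398 to 87755. The V exon of Ighv1-72 is 99.0% identical to that of Ighv1-62-3, which had 0 counts in all BALB/c mice and 12, 3 and 3 in the NOD.H-2b mice of 6M. Ighv10-3 stood at 0.365, 0.277 and 0.468 CPM in BALB/c and 7.07, 10.4 and 9.34 CPM in NOD.H-2b, a log2 fold change of 4.63 (SE 0.23, edgeR FDR 3.8e-07). Its neighbour in sequence, Ighv10-1, with a V exon 96.8% identical, did not separate the strains at this age. CPM did not overlap for 58 of the 59 higher genes, a description with the same limit as at 4M. A set of 29 genes was called higher at all 3 ages and 47 at both 4M and 6M, 12 of which were not tested at 2M. The shares of all genes called at the same ages were not computed. Since the 2M calls also carry the limit of the filter given above, these numbers are a description.

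**Figure D3:**
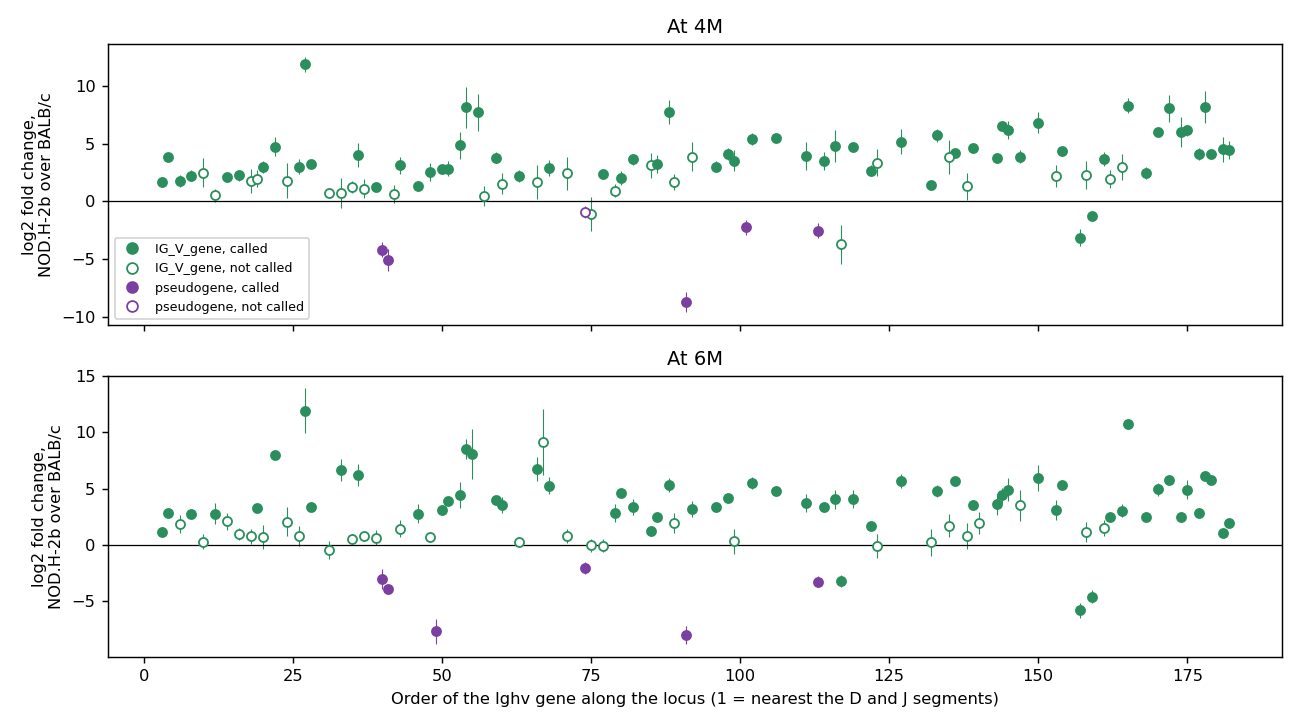
Log2 fold change of NOD.H-2b over BALB/c with its standard error for each tested Ighv gene, in the order of the genes along the locus, at 4M (top) and 6M (bottom); green, IG_V_gene; purple, pseudogene; filled, called. Higher calls, 62 at 4M and 59 at 6M, occur along the whole locus and are all IG_V_genes, while 5 of the 7 and 6 of the 9 lower calls are pseudogenes.

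The genes lower in NOD.H-2b were mostly annotated pseudogenes, 5 of 7 at 4M and 6 of 9 at 6M, and 6 genes were called lower at both ages. No pseudogene was called higher at any age. With at least 10 counts required in every mouse, no gene was called lower at 4M or 6M, so the lower calls are a description. Ighv1-14, whose reference reading frame stops early, had 227, 705 and 389 counts in BALB/c and 1, 1 and 1 in NOD.H-2b mice at 4M, a ratio of levels of 467 with a counting interval of 159 to 2266. At 6M it had 600, 422 and 106 counts in BALB/c and 3, 1 and 0 in NOD.H-2b, a log2 fold change of -8.00 (SE 0.79, edgeR FDR 0.00013). Ighv3-2 had 584, 97 and 533 counts in BALB/c and 26, 9 and 2 in NOD.H-2b mice at 4M, and 306, 105 and 122 against 13, 8 and 13 at 6M, where its log2 fold change was -3.92 (SE 0.29, edgeR FDR 2.7e-06). Ighv8-11 and Ighv1-67, both annotated as IG_V_gene, were also lower at both ages. Ighv8-11 had 118, 79 and 38 counts in BALB/c and 4, 0 and 0 in NOD.H-2b mice at 6M, a log2 fold change of -5.80 (SE 0.67, edgeR FDR 6.1e-05). Ighv1-67 had 167, 74 and 24 counts against 5, 1 and 4, a log2 fold change of -4.59 (SE 0.59, edgeR FDR 0.00012). In each of these genes all BALB/c mice lay above all NOD.H-2b mice at 6M.

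The pair in family 4 went opposite ways. Ighv4-1 stood at 1.18, 0.528 and 0.925 CPM in BALB/c and 6.80, 32.0 and 3.90 CPM in NOD.H-2b mice at 4M, and at 0.150, 0.277 and 0.982 CPM against 34.4, 43.5 and 9.66 CPM at 6M. Ighv4-2 stood at 4.66, 0.996 and 2.58 CPM in BALB/c and 0.197, 0.155 and 0.0801 CPM in NOD.H-2b mice at 4M, and at 0.526, 0.596 and 3.60 CPM against 0.261, 0.158 and 0.105 CPM at 6M. The strains did not overlap in either gene. Log2 fold changes were 4.01 (SE 1.07, edgeR FDR 0.040) and 6.22 (SE 1.01, edgeR FDR 0.0061) for Ighv4-1 at 4M and 6M. They were -4.19 (SE 0.65, edgeR FDR 0.0016) and -3.04 (SE 0.91, edgeR FDR 0.026) for Ighv4-2. Within every BALB/c mouse Ighv4-2 exceeded Ighv4-1 in counts, and within every NOD.H-2b mouse Ighv4-1 exceeded Ighv4-2.

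Pseudogenes took 5.26%, 21.3% and 4.28% of the Ighv counts of the BALB/c mice at 2M, 18.6%, 20.2% and 10.0% at 4M and 13.8%, 9.45% and 10.7% at 6M. In NOD.H-2b mice they took 0.020% to 0.063% at 2M, 0.161% to 0.250% at 4M and 0.138% to 0.173% at 6M. The lowest BALB/c share exceeded the highest NOD.H-2b share at every age, also with Ighv1-14 left out, when the BALB/c shares were 4.11% to 20.1%. The part of read assignment to the reference genome in these shares was not tested.

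Among single genes, 139 had a count in both strains, 9 in BALB/c only and 7 in NOD.H-2b only, and 27 had a count in all 18 mice. All 9 found in BALB/c only were pseudogenes. Ighv5-16 was the only gene with counts in all 9 NOD.H-2b mice and in no BALB/c mouse, and no gene showed the opposite pattern. It had 28, 319 and 227 counts at 2M, 347, 573 and 488 at 4M and 817, 591 and 130 at 6M in NOD.H-2b. Against a floor of 3 counts per BALB/c library it was at least 54.1-fold higher at 2M, at least 148-fold at 4M and at least 140-fold at 6M. It was called at 4M and 6M but not at 2M, where its lowest NOD.H-2b mouse had 28 counts (edgeR FDR 0.089). The nearest V exon to that of Ighv5-16, Ighv5-12, is 86.0% identical, and it did have counts in BALB/c, 119, 107 and 200 at 4M and 95, 216 and 59 at 6M.

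**Figure D4:**
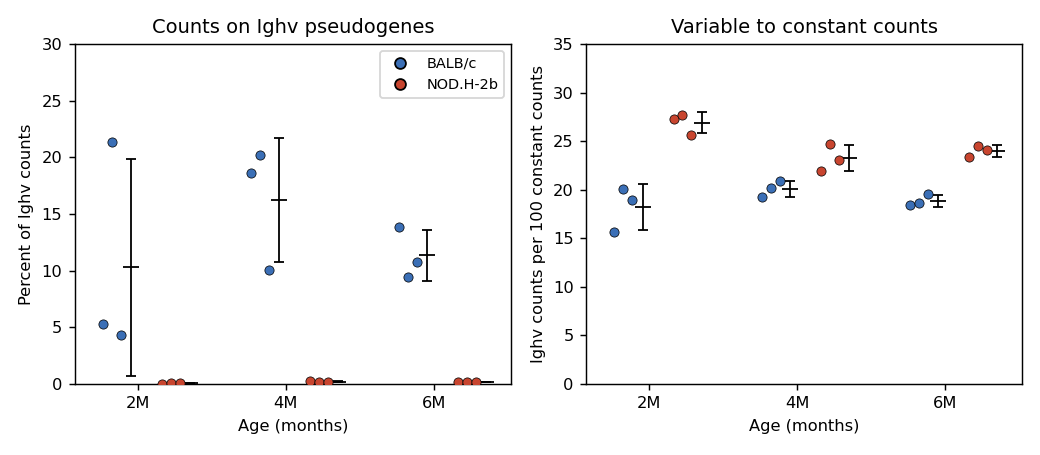
Share of Ighv counts on annotated pseudogenes (left, percent) and Ighv counts per 100 counts of heavy chain constant genes (right) against age, 1 point per mouse with mean and SD of 3 mice (blue BALB/c, red NOD.H-2b). Pseudogene shares lie between 4.28% and 21.3% in BALB/c and at or below 0.250% in NOD.H-2b, and the ratios lie between 15.6 and 20.9 in BALB/c and between 22.0 and 27.7 in NOD.H-2b.

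On the average of the 3 ages, 83 of 105 tested Ighv genes were called higher and 7 called lower in NOD.H-2b mice, against 17.6% and 5.19% of all 19117 genes tested. The smallest p values were those of Ighv1-53 (log2 fold change 5.14, SE 0.22, edgeR FDR 2.6e-11), Ighv1-26 (5.22, SE 0.24, edgeR FDR 1.8e-10) and Ighv1-19 (5.81, SE 0.34, edgeR FDR 1.6e-09). Among the lower genes they were those of Ighv4-2 (-3.55, SE 0.55, edgeR FDR 3.7e-05), Ighv8-11 (-3.79, SE 0.69, edgeR FDR 8.1e-05) and Ighv1-14 (-7.00, SE 1.24, edgeR FDR 0.00029). The number of lower genes was 11 when any of 7 single mice was left out, namely BALB/c 2M replicate 1, 4M replicate 2, 6M replicate 3, NOD.H-2b 4M replicate 3 or any NOD.H-2b mouse of 6M.

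Whether the strain difference changed from 2M to 6M was tested by the interaction of strain and age on all 18 mice. Of 105 genes, 0 had a larger and 1 a smaller difference at 6M, Ighv5-9, against 5.11% of all 19117 genes called, 3.60% with a larger and 1.50% with a smaller difference, and 16 had an unadjusted p under 0.05 in edgeR. Ighv5-9 stood at 0.0382, 0.0359 and 0.0353 CPM in BALB/c and 1.63, 3.58 and 2.47 CPM in NOD.H-2b mice at 2M, and at 0.923, 5.11 and 3.02 CPM against 18.9, 9.17 and 8.40 CPM at 6M. BALB/c mice thus lay below NOD.H-2b mice at both ages but closer to them at 6M, where the strain difference was not called. The interaction was -4.01 on the log2 scale (SE 1.17, edgeR FDR 0.035). The call of the interaction was lost without any one of 8 mice (edgeR FDR 0.051 to 0.078), all 3 BALB/c mice of 2M among them. The count was 0 without BALB/c 2M replicate 1 or 2, or NOD.H-2b 2M replicate 3 or 6M replicate 3, and 5 without NOD.H-2b 2M replicate 1. It was 2 to 4 without any 1 of the 4M mice of either strain, BALB/c 6M replicate 1 or 3, or NOD.H-2b 6M replicate 2. DESeq2's Wald test called 20 genes, a count to which the edgeR shares of all genes do not apply. The median of the 105 interactions was -1.68, beside -0.031 over all genes.

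In BALB/c, 49 of 64 tested Ighv genes rose from 2M to 4M and none fell in edgeR's test, against 2.07% of all 16639 genes called higher and 0.300% lower. With an unadjusted p under 0.05, 61 of the 64 differed. The smallest p values belonged to Ighv1-18, Ighv2-3 and Ighv5-9. Ighv1-18 had 0 counts in all 3 mice of 2M and 88, 79 and 115 at 4M, at least 30.1-fold higher against 3 counts per library. Ighv2-3 had 1, 1 and 2 counts at 2M and 65, 57 and 72 at 4M, a log2 fold change of 5.44 (SE 0.45, edgeR FDR 2.0e-05). Ages did not overlap in either gene. From 2M to 6M, 47 of 66 rose and none fell, against 1.57% of all 16579 genes called higher and 0.115% lower, and 62 had an unadjusted p under 0.05. Ighv1-9 had 6, 8 and 10 counts at 2M and 310, 188 and 95 at 6M, a log2 fold change of 4.43 (SE 0.31, edgeR FDR 1.4e-05). Ighv2-2 had 13, 9 and 10 counts at 2M and 361, 117 and 88 at 6M, a log2 fold change of 3.85 (SE 0.32, edgeR FDR 5.5e-05). Ages did not overlap in these genes either. As between the strains, these genes passed the filter through the older mice.

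From 4M to 6M in BALB/c, 1 of 78 Ighv genes changed, the pseudogene Ighv12-2, among 6 genes, 0.0361%, of all 16622 tested, with 0.0180% higher and 0.0180% lower. It had 1, 0 and 0 counts at 4M and 23, 31 and 16 at 6M, a ratio of levels of 65.3 with a counting interval of 11.3 to 2615 (edgeR FDR 0.036), but 34 counts in BALB/c 2M replicate 2 and 0 in the other mice of 2M. The call was lost without any mouse of 4M or without 6M replicate 2 (edgeR FDR 0.0997 to 0.153). Without BALB/c 6M replicate 3, 5 Ighv genes were called, without 6M replicate 1, 2 were, and without 4M replicate 1 or 3 or 6M replicate 2, 0 were. With all 6 mice, 12 of the 78 had an unadjusted p under 0.05 in edgeR.

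In NOD.H-2b, 27 of 90 tested Ighv genes rose from 2M to 4M and none fell in edgeR's test, against 5.97% of all 17763 genes called higher and 0.625% lower, and 57 had an unadjusted p under 0.05. Of the 90 genes, 57 had at least 10 counts in every mouse of 2M, and the others passed the filter through the mice of 4M, so the count is a description. With at least 10 counts in every mouse, 21 of 56 rose. Without NOD.H-2b 2M replicate 3, 11 genes changed. DESeq2's Wald test called 54, and 1 fit of all 18 mice called 61. The shares of all genes named in this paragraph are those of edgeR's main filter and fit only. Ighv1-26 stood at 3.32, 4.43 and 4.87 CPM at 2M and 30.1, 42.3 and 26.5 CPM at 4M, a log2 fold change of 2.97 (SE 0.22, edgeR FDR 0.0022). Ighv1-71 and Ighv1-62-2, which share a V exon, also rose. Ighv1-71 had 2, 3 and 7 counts at 2M and 174, 80 and 62 at 4M, a log2 fold change of 4.72 (SE 0.52, edgeR FDR 0.0032). Ighv1-62-2 had 1, 0 and 0 counts at 2M and 78, 72 and 18 at 4M, a ratio of levels of 177 with a counting interval of 31.3 to 7022 (edgeR FDR 0.0049). From 2M to 6M, 38 of 91 genes were higher and 1 lower, against 10.9% and 1.55% of all 18008 genes tested, and 28 of 56 were higher with at least 10 counts in every mouse. Ighv2-9-1 stood at 1.51, 1.51 and 1.78 CPM at 2M and 11.5, 19.2 and 19.5 CPM at 6M, a log2 fold change of 3.37 (SE 0.23, edgeR FDR 0.00037). Ighv1-34 and Ighv1-19 rose by 3.62 (SE 0.28, edgeR FDR 0.00029) and 1.74 (SE 0.19, edgeR FDR 0.00067). The 1 lower gene was Ighv3-5, with 44, 24 and 16 counts at 2M and 4, 13 and 4 at 6M, a log2 fold change of -1.97 (SE 0.62, edgeR FDR 0.031). That call was lost without 2M replicate 1, 6M replicate 1 or 6M replicate 3 (edgeR FDR 0.10 to 0.124).

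From 4M to 6M in NOD.H-2b, 1 of 94 Ighv genes changed, Ighv9-4, which was also the 1 gene called, 0.00555%, among all 18026 tested. It stood at 3.90, 3.96 and 4.22 CPM at 4M and 17.0, 27.9 and 25.6 CPM at 6M, a log2 fold change of 2.56 (SE 0.19, edgeR FDR 0.0087). The 2M mice, at 5.92, 13.3 and 1.92 CPM, spread around the level of 4M. The call was lost without NOD.H-2b 4M replicate 3 (edgeR FDR 0.11) or 6M replicate 3 (edgeR FDR 0.068). With all 6 mice, 22 of the 94 genes had an unadjusted p under 0.05 in edgeR. No Ighv gene was called without either of these mice, and 6 were called without 4M replicate 1, 3 without 4M replicate 2 and 2 without 6M replicate 1. In BALB/c, Ighv9-4 stood at 1.01, 4.39 and 0.982 CPM at 6M, below every NOD.H-2b mouse of that age.

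Family 1, the largest family and placed in the middle and far parts of the locus, took 34.7%, 22.8% and 33.1% of the Ighv counts in BALB/c and 45.3%, 39.6% and 39.7% in NOD.H-2b mice at 2M. At 4M it took 34.0%, 43.9% and 21.9% in BALB/c and 59.8%, 49.1% and 47.9% in NOD.H-2b, without overlap. At 6M the shares were 45.6%, 35.1% and 30.0% in BALB/c and 44.5%, 46.6% and 47.9% in NOD.H-2b, which overlapped. Family 4 took 7.93% to 13.8% in NOD.H-2b mice at 2M, nearly all of it Ighv4-1, and 2.98% to 5.33% in BALB/c. Family 10 reached 40.9% in BALB/c 4M replicate 3 and 0.708% to 5.21% in the NOD.H-2b mice of 4M. By position, the third of the locus farthest from the D and J segments (61 genes, 47 of family 1) held 7.05% to 15.8% of the counts in BALB/c and 26.8% to 43.6% in NOD.H-2b mice at 4M. At 6M it held 12.5% to 19.8% and 27.4% to 31.3%. At 2M, 17.4% to 26.6% and 18.3% to 25.6% overlapped. The outermost genes, the pseudogenes Ighv5-1 and Ighv1-86, had at most 17 and 12 counts in any mouse.

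**Figure D5:**
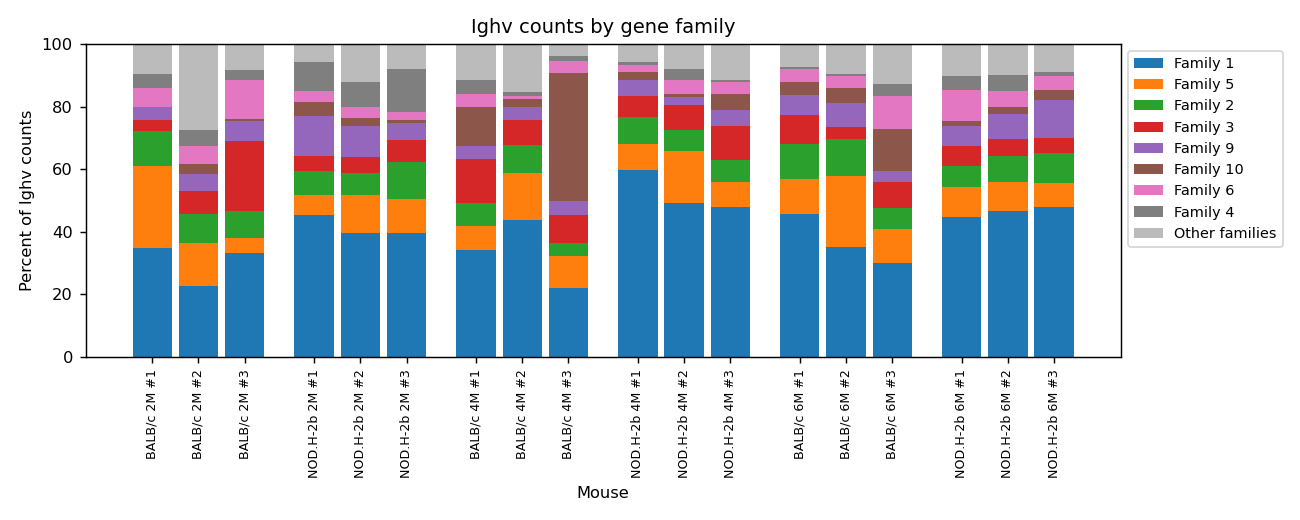
Percent of the Ighv counts of each mouse by gene family, 1 bar per mouse. Family 1 takes 47.9% to 59.8% in NOD.H-2b and 21.9% to 43.9% in BALB/c at 4M, and family 10 takes 40.9% in BALB/c 4M replicate 3.

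Genes that work with the V segments were read beside them. Their counts of calls stand against 12.0%, 15.6% and 18.8% of all genes called higher in NOD.H-2b and 3.76%, 4.72% and 6.03% called lower at 2M, 4M and 6M. Of the 9 constant and joining chain genes, 6 of 7 tested were higher in NOD.H-2b mice at 2M, 7 of 8 at 4M and 7 of 8 at 6M, and none was lower. Igha, the constant region of IgA, had a log2 fold change of 3.95 (SE 0.57, edgeR FDR 0.0075) at 2M and 1.78 (SE 0.20, edgeR FDR 6.6e-05) at 6M. Ighm, that of IgM, had 4.54 (SE 0.65, edgeR FDR 0.0072) and 6.29 (SE 0.35, edgeR FDR 1.6e-05). Igha ran from 480 to 964 CPM in BALB/c at 4M and from 1394 to 3142 CPM in NOD.H-2b, and Ighm from 4.70 to 7.68 CPM and from 239 to 377 CPM. Per 100 constant counts there were 15.6 to 20.9 Ighv counts in BALB/c and 22.0 to 27.7 in NOD.H-2b mice, without overlap. The part of read assignment to the reference genome in this ratio was not tested. In NOD.H-2b 4M replicate 1, 107681 constant counts were Ighg1, against at most 1167 in the other mice of that group, and without Ighg1 its ratio was 39.5.

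Of 12 tested genes for V(D)J recombination, class switching and hypermutation, 1 was higher and none lower at each age in edgeR's test, namely Exo1, a DNA exonuclease, with log2 fold changes of 2.68, 2.72 and 1.80. A share of 1 in 12 is not above that over all genes. Rag1, part of the recombinase, had 0 counts in all mice. Of the B cell markers, 4 of 7 tested were higher in NOD.H-2b mice at 2M and 15 of 15 at 4M and at 6M. Their summed level was 0.864 to 1.81 CPM in BALB/c at 2M, 2.86 to 5.07 at 4M and 1.61 to 4.28 at 6M, against 6.44 to 54.7, 245 to 534 and 366 to 737 CPM in NOD.H-2b. Ms4a1, a surface protein of B cells, had at most 5 counts in any BALB/c mouse. Of the 12 plasma cell markers, 4, 7 and 5 were higher at the 3 ages. Their summed level was 557 to 746 CPM in NOD.H-2b and 648 to 752 CPM in BALB/c over the 3 ages. This sum was mostly Xbp1, Derl3, Creld2 and Fkbp11 and says little about the rarer markers. At 6M the highest count of Pou2af1 was 2278 among NOD.H-2b mice, against 355 among BALB/c mice. For Mzb1 it was 1213 against 226, and for Slamf7 1529 against 164. Xbp1, Derl3, Creld2, Fkbp11 and Sdc1 had their higher maximum among BALB/c mice at 6M. These maxima are not scaled to library size. BALB/c 6M replicate 1 held 103936830 counts, against 50470457 to 58993318 in the NOD.H-2b libraries of 6M. The higher BALB/c maxima thus cannot be told apart from depth, and 0 of the 12 markers were called lower at 6M. From 2M to 4M in BALB/c, 5 of the 12 plasma cell markers and 2 of 5 tested B cell markers rose, against 2.07% of all genes. All 10 T cell markers were higher in NOD.H-2b mice at each age, as were 7, 6 and 7 of 8 macrophage markers. Epithelial markers had no higher call, and 1 was lower at 4M. The 1 skeletal muscle marker tested was lower at each age, no adipocyte marker was called, and of 5 erythroid markers 2, 2 and 1 were higher and 1 lower. These gene lists were not chosen independently of these data. The part of these cells in the Ighv results was not tested.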

How the data were processed

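RNA of 18 LGs was sequenced after rRNA depletion as paired ends on a NextSeq 500. The authors trimmed reads with cutadapt, checked them with FastQC, aligned them to GRCm38 with STAR and deposited raw HTSeq counts per gene. Versions, annotation release, strand setting and treatment of multiply mapped reads are not given in the sources used here. Counts were tested as deposited with edgeR 4.0.16 (R 4.3.3, robust quasi-likelihood, TMM, filterByExpr, Benjamini-Hochberg FDR over all genes), per age or strain on 6 mice, and on 18 mice for the average and interaction. DESeq2 1.42.0 was an alternative. CPM used TMM factors of all 18 libraries. P-values measure the spread between these mice. Ratio intervals are exact at 95% and, like the floor of 3 counts per library, cover counting error only. The edgeR script was tested on simulated data. Sequences came from GENCODE M21 and were compared with Python 3.11.15. Genes named were the highest per length, the leading genes of mice, those with the smallest p in each comparison and direction, those counted in every mouse of 1 strain only, and those at the ends of the locus, while Ighv1-62-3 was named for its likeness to Ighv1-72 after the values were seen. Members and gene lists were chosen with earlier results of these data known.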

Additional observations from a re-analysis of the deposited data

Results flagged for a closer look

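Ighv5-9 stood out because its strain difference changed with age by the test of the interaction itself. The difference of NOD.H-2b over BALB/c was 6.10 on the log2 scale at 2M, 2.10 at 4M and 2.10 at 6M. It was called at 2M and 4M but not at 6M. The interaction of 6M against 2M was -4.01 (SE 1.17, edgeR FDR 0.035). Each BALB/c mouse of 2M held 2 counts of the gene, and BALB/c mice rose by 4.97 on the log2 scale from 2M to 4M (SE 0.42, edgeR FDR 2.2e-05). Among other genes of the heavy chain, Igha had an interaction of -2.16 (SE 0.60, edgeR FDR 0.030), and Ighm 1.76 (SE 0.62, edgeR FDR 0.071). With 3 mice in a group, no test for a single mouse standing apart was made.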

How the results depend on the processing

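No call turned its direction, and no difference as large as its pooled SD changed sign. At 6M, 2 smaller differences did. Genes with a count, -0.33, was 7.67 and 10.0 under settings given below and 2.57 with counts thinned to the lowest library total. The effective number, -0.97, was 4.53 for IG_V_genes and 3.80 by the inverse Simpson index. It was 0.42 with Ighv counts thinned to the lowest Ighv total. A count of calls was said to stay when it kept within a fixed ratio of the main count, and a difference when it shifted by less than its pooled SD. By this rule 99 stayed and 36 moved under another setting, as did 144 and 36 with 1 mouse left out. Single named genes kept their call in 183 cases and lost it in 5, and in 289 and 17 with 1 mouse left out.
With at least 10 counts in every sample, no Ighv gene could be tested at 2M, on the average, in strain by age or from 2M onward in BALB/c, giving 0 calls, while 38 and 36 were higher and 0 lower at 4M and 6M, and 0 between 4M and 6M BALB/c mice. With no filter, 3, 13 and 16 were lower at the 3 ages and 13 on average, 80, 13 and 77 changed in BALB/c (2M to 4M, 4M to 6M, 2M to 6M), and 0 in strain by age. The cause was not tested. Shares of all genes called are not given for these other settings, so their counts are a description. DESeq2's Wald test called 4 between BALB/c mice of 4M and 6M, 54 and 9 from 2M to 4M and 4M to 6M in NOD.H-2b, and 20 in strain by age. One fit of 18 mice called 0, 61 and 4 in those 3 age comparisons, and Ighv12-2, Ighv9-4 and Ighv3-5 lost their call in it (FDR 0.20, 0.095 and 0.067), as did Ighv5-9 with no filter (FDR 0.069).
Mice with the same replicate number did not pair: in 0 of 15 pairs of groups did every correlation pass 0.1 (-0.30 to 0.30). With the replicate number as a block, 2 and 6 genes differed between 4M and 6M of BALB/c and of NOD.H-2b and 4 in strain by age, and Ighv3-5 had an FDR of 0.070, while the block changed no other named call.
The difference in genes with a count was 61.7, 16.7 and 10.0 at 10 or more counts, 10.0 and 7.67 for IG_V_genes at 4M and 6M, and 3.55 at 2M with Ighv counts thinned, chosen after seeing the data. The log2 difference of the sums at 6M was 3.03 with total counts as library size and 2.61 with TMM.
Leaving out 1 mouse gave these ranges. Higher calls were 35 to 63, 49 to 60 and 50 to 62 at the 3 ages and 79 to 84 on average. Lower calls were 0 to 1, 6 to 9, 9 to 11 and 8 to 11. Changed genes (2M to 4M, 4M to 6M, 2M to 6M) were 45 to 55, 0 to 5 and 35 to 57 in BALB/c, 11 to 25, 0 to 6 and 30 to 45 in NOD.H-2b, and 0 to 5 in strain by age. Differences in effective number were 6.96 to 14.5, 2.59 to 18.2 and -5.00 to 2.56, in genes with a count 21.7 to 35.2, 2.0 to 7.5 and -4.5 to 2.0, and in log2 sums 4.12 to 4.94, 2.30 to 2.82 and 2.44 to 2.83. The 190 to 537 Ighv counts of BALB/c mice at 2M limit every value of that group.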

Other observations

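Some Ighv genes were high in 1 mouse of a group. Ighv1-81 stood at 73.0 CPM in NOD.H-2b 4M replicate 1 and at 20.4 and 8.59 CPM in the other mice of that group. Ighv5-6 stood at 69.2 CPM in NOD.H-2b 4M replicate 2 and at 6.77 and 6.31 CPM in the others, and it was not called between the strains at 4M (edgeR FDR 0.19) or 6M (edgeR FDR 0.71). Ighv6-3 stood at 65.9, 35.3 and 19.6 CPM in the 6M mice of NOD.H-2b. In NOD.H-2b 4M replicate 1, Ighg1 held 107681 counts.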
